A study of Mus musculus with 6 samples.

Results

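The genes described here are those of respiratory complex I, taken as every gene of the table whose symbol starts with Nduf: 45 of 24532 genes. They comprised 36 subunits, 7 assembly factors (symbols starting with Ndufaf) and Ndufa4 with its relative Ndufa4l2. Ndufa4 keeps a complex I name, but its protein is known as a subunit of cytochrome c oxidase (complex IV), so this pair is kept apart. The genes were chosen by name alone, and all 45 passed the filter on low counts.

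Poly(A)-selected, strand-preserving RNA libraries came from whole gastrocnemius, the large calf muscle, of C57BL/6 mice aged 12 weeks. The 3 control mice carried USP21 flox/flox alleles with no Cre named in their labels, and the 3 knockout mice carried the same alleles with Ckmm-Cre, a Cre recombinase under the muscle creatine kinase promoter that acts in striated muscle fibres. Other cells of the muscle keep Usp21, which encodes a deubiquitinating enzyme, and mice with Cre but no floxed allele were not analysed here. The labels enter the controls' genotype as Litter without saying which mice were littermates, and p-values below reflect only how these 6 samples vary. In whole muscle, fewer cells of a type and less RNA per cell cannot be told apart.

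Complex I (NADH:ubiquinone oxidoreductase) is the main entry of electrons from NADH into the respiratory chain of mitochondria. Its matrix arm has an N module, where a flavin and a chain of iron-sulfur clusters take electrons from NADH, and a Q module, where they reach ubiquinone; the membrane arm pumps protons. The nuclear genes below encode the matrix arm's catalytic subunits and the accessory subunits of both arms. The proton-pumping core subunits are encoded by mitochondrial DNA. Of 14 names sought for mitochondrially encoded complex I subunits, 0 were in the table, so they could not be analysed here. Assembly factors build the complex and are not part of the finished enzyme.

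Total counts were 48658436 to 67332846 per library. Usp21 stood at 19.2 ± 0.0762 CPM (counts scaled to a common library size; SD, n = 3) in controls and 7.91 ± 1.02 CPM (SD, n = 3) in knockouts (edgeR adjusted p = 0.0355). Ckm, the muscle creatine kinase, lay between 22601 and 34506 CPM. Control 3 stood apart in slow fibre markers, whose 10 genes summed to 206 CPM there, against 1681 and 1722 CPM in the other controls and 863 to 1972 CPM in knockouts. Erythroid markers summed to 1009.9 CPM in knockout 2 and to at most 274 CPM elsewhere. All 6 fibroblast markers had a positive log2 fold change, against 49.3% of all genes tested. In edgeR 0 of them were called (0.0567% of all genes) and 3 had an unadjusted p under 0.05 (11.6% of all genes). They summed to 1429 to 2229 CPM in controls and 2181 to 2607 CPM in knockouts. The part of these markers in the complex I values was not tested.

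One subunit has to be read together with another row of the table. Ndufs5 (Entrez 595136; mm10, chromosome 4, 123712710 to 123718186), a small accessory subunit on the intermembrane side of the membrane arm, has a near-identical copy, BC002163 (Entrez 170658), annotated by GENCODE as a processed pseudogene on chromosome 16, 42955631 to 42955949. Over 319 aligned bases from the start codon the transcripts differed by 2 substitutions, T81C and A105G, counted from 1 at the A of the Ndufs5 start codon with the Ndufs5 base first. The first 130 bases of each, from GENCODE M21 transcripts, are shown because both differences lie in them; capitals mark the differing bases.
Ndufs5: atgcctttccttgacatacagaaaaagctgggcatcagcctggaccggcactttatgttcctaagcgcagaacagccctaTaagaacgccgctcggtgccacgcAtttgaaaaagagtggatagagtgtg
BC002163: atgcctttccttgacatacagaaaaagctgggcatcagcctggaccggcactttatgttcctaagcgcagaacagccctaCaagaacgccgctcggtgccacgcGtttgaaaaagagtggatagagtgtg

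Most reads of this sequence were counted on the copy. Ndufs5 stood at 9.07, 7.12 and 6.76 CPM in controls 1 to 3 and 5.55, 7.16 and 6.24 CPM in knockouts 1 to 3. BC002163 stood at 102, 95.7 and 102 CPM in controls 1 to 3 and 98.6, 95.5 and 97.6 CPM in knockouts 1 to 3. Ndufs5 thus held 5.33% to 8.18% of the pair's sum, with its highest level in control 1 and its lowest in knockout 1.

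Ndufs5 had the lowest log2 fold change of the 45 genes, -0.28 (SE 0.159; adjusted p in edgeR = 0.550), knockout minus control, with overlapping groups. Without control 1 it was -0.14, and Ndufaf3 was then the lowest (-0.23). Summed over both rows, the pair had a control mean of 108 ± 4.24 CPM and a knockout mean of 104 ± 0.781 CPM (SD, n = 3 each). Fitted as 1 gene, which was chosen after seeing the data, it had a log2 fold change of -0.056 (SE 0.0719, 95% interval -0.22 to 0.11, edgeR adjusted p = 0.803). How the reads were divided between the rows is not given in the sources used here, so the Ndufs5 row alone is uncertain.

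**Figure D1:**
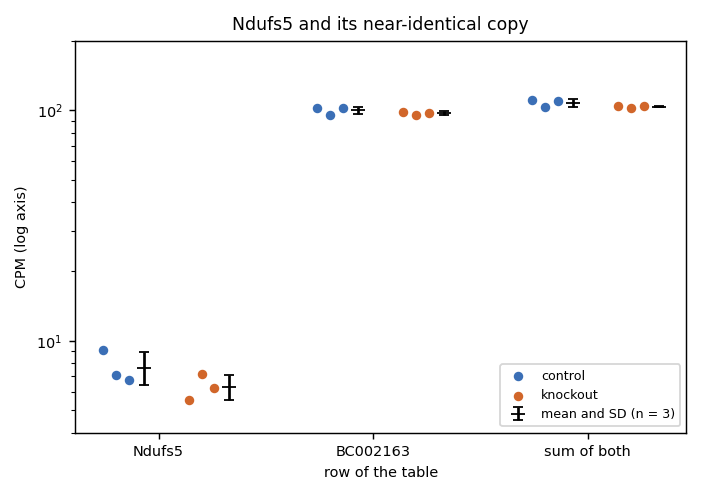
CPM on a log axis of Ndufs5, of its near-identical copy BC002163 and of their sum, with 3 control (blue) and 3 knockout (orange) libraries as points and the mean with its SD in black. Ndufs5 lay between 5.55 and 9.07 CPM, far under the copy, and the sums lay between 103 and 111 CPM.

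Other members have near-identical copies too, found as transcripts of other loci with at least 97% identity over at least 100 bases. Ndufa12 matched a processed pseudogene over 402 bases at 99.5% identity, Ndufs3 another over 792 bases at 98.6%, and Ndufb4 another, Ndufb4c, over 390 bases. Ndufab1 matched 2 processed pseudogenes, the longer match over 469 bases. Ndufaf7 matched 3 unrelated transcripts over at most 141 bases, and Ndufb2, Ndufb8 and Ndufb9 each overlap another annotated gene at their own locus. Those other genes were not analysed here, and the counts of these 8 genes are uncertain to the extent that reads were shared.

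Promoters were searched because nuclear complex I genes are known targets of nuclear respiratory factor 1 (NRF1), of ETS factors such as GABP, of YY1 and of estrogen-related receptors (ERR), which the coactivator encoded by Ppargc1a can bind. RefSeq promoter sequences on GRCm38.p6, from 250 bases before to 50 after the start, were found for 39 of the 45 genes and for 11136 of all genes tested. The letters GCGCATGC (NRF1) stood on either strand in 5 of them (12.8%), against 5.57% of all genes tested with a promoter. CCGGAAG (ETS) stood in 5 (12.8%, against 18.6%), AAGATGGCG (YY1) in 5 (12.8%, against 3.28%) and AAGGTCA (ERR) in 3 (7.69%, against 3.96%). In all, 9 patterns were searched. GCATGCGC is the reverse complement of the NRF1 letters and gives the same matches, and the longer NRF1 form, these letters followed by GC, stood in 3 (7.69%, against 2.16%). GGGCGG, the letters SP factors bind, stood in 20 (51.3%, against 66.8%), CCAAT in 13 (33.3%, against 42.3%) and TATAAA in 4 (10.3%, against 9.31%). The first 4 were kept for a closer description after these counts were seen, and a match is a description, not a site. For each of them the most abundant member with a match before its start is shown as 80 bases in the gene's direction with the match in capitals; no YY1 match lay wholly before a start, so none is shown. The matches lay 83 bases before the start in Ndufa6 (on the reverse strand), 20 in Ndufb7 and 55 in Ndufb4.
Ndufa6 promoter, chr15:82354325-82354404, minus strand: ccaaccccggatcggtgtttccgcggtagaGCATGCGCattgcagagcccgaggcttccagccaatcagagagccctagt
Ndufb7 promoter, chr8:83566678-83566757, plus strand: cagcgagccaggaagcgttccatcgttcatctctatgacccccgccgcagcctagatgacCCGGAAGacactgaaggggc
Ndufb4 promoter, chr16:37654374-37654453, minus strand: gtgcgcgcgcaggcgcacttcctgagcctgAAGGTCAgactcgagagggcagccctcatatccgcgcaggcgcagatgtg

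Values of the members holding each motif follow, knockout minus control. The log2 fold changes ran from -0.011 to 0.071 for the genes with the NRF1 letters (Ndufa6, Ndufa8, Ndufa11, Ndufaf4 and Ndufaf5) and from -0.036 to 0.17 for those with the ETS letters (Ndufs3, Ndufb6, Ndufb7, Ndufs8 and Ndufaf1). They ran from -0.082 to 0.19 for those with the YY1 letters (Ndufa9, Ndufc1, Ndufs4, Ndufs6 and Ndufs7). For those with the ERR letters (Ndufb2, Ndufb4 and Ndufs5) they ran from -0.28 to -0.058. The -0.28 is that of the uncertain Ndufs5 row alone, and the pair summed with BC002163 had -0.056. Ndufb2 and Ndufb4 are among the genes above whose reads may be shared. None of the genes holding these motifs passed the threshold in edgeR.

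Levels per gene length, as the authors' FPKM (fragments per kilobase of gene model and library size), placed the subunits far above their assembly factors. The median over the 36 subunits was 215 FPKM, and 33 of them lay between 100 and 600 FPKM. The 7 assembly factors lay between 7.37 and 27.4 FPKM, with a median of 11.6. Ndufaf1, which helps to build the membrane arm, was the highest assembly factor (27.4 ± 2.94 FPKM; SD, n = 6 libraries), and Ndufaf7, a methyltransferase, the lowest (7.37 ± 0.285 FPKM).

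Within each part of the complex the order was as follows. In the N module Ndufa12 was highest (393 ± 30.6 FPKM) and Ndufs4 lowest (97.03 ± 9.10 FPKM). In the Q module Ndufs8 (136 ± 15.8 FPKM) was lowest. In the distal membrane arm Ndufb9 (588 ± 51.3 FPKM), the highest of all subunits, contrasted with Ndufb3 (123 ± 16.7 FPKM). In the proximal membrane arm Ndufa3 had the highest FPKM (296 ± 30.7). These orders rest on the gene lengths behind the authors' FPKM. They were also rescaled to the length of the matched GENCODE transcript, the longest where several matched a gene. Ndufc1 (360.3 FPKM) would then stand above Ndufa3 (204 FPKM) and Ndufv3 (60.8 FPKM) below Ndufs4 (88.9 FPKM). Ndufaf3 (8.41 FPKM) would stand below Ndufaf7 (9.85 FPKM). The rescaled orders depend on this choice of transcript. For Ndufv3 the matched transcript has 1582 bases, while counts and FPKM imply 533. Ndufc1 and Ndufv3 fall outside the naming rule and were picked with their values known.

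By the authors' FPKM the lowest subunits were Ndufa11 (44.3 ± 4.71 FPKM) and Ndufs5 (13.5 ± 2.57 FPKM), and both values carry a limit. For Ndufa11 the counts and FPKM together imply a gene model of 2699 bases, while its matched GENCODE transcript has 545. Over that transcript Ndufa11 would stand at 220 FPKM. For Ndufs5 and BC002163 together, the summed FPKM was 215, close to the median subunit. The acyl carrier Ndufab1, which serves mitochondrial fatty acid synthesis as well as complex I, stood at 173 ± 18.05 FPKM. Over its matched transcript, longer at 3479 bases than the implied 811, Ndufab1 would stand at 40.3 FPKM. Ndufa4 was the highest of all 45 genes at 844 ± 49.3 FPKM, and Ndufa4l2, a relative known as a hypoxia-induced gene, stood at 10.2 ± 1.03 FPKM. Of the 35 pairs of neighbours in the order of the subunits, 29 differed by less than the larger of their SDs over libraries. These SDs include differences between libraries that the genes share, and how steady the order was within each library was not tested.

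**Figure D2:**
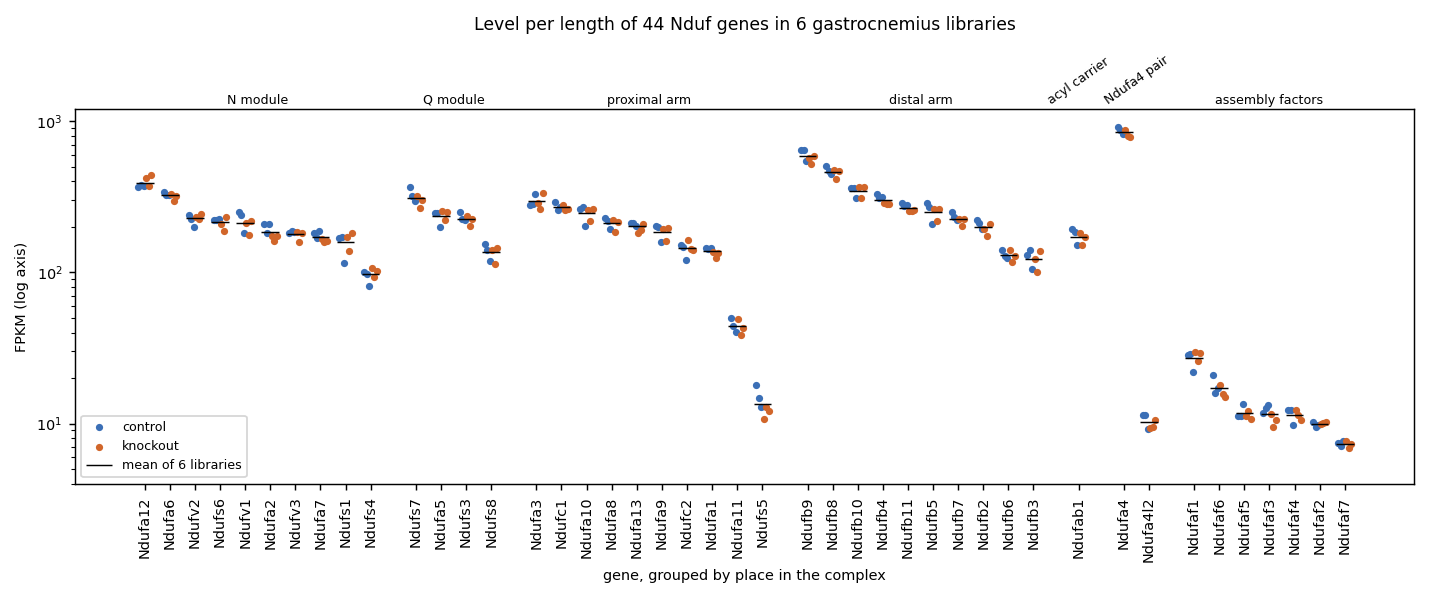
FPKM on a log axis of the 44 genes, grouped by place in the complex and ordered by level; points are the 3 control (blue) and 3 knockout (orange) libraries and bars the mean of all 6. The subunits form a band from which Ndufa11 and Ndufs5 hang below, the assembly factors lie between 7.37 and 27.4 FPKM on average, and the groups intermix.

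No complex I gene passed the threshold between knockouts and controls. At an edgeR quasi-likelihood adjusted p under 0.05, 0 of 45 were called, against 0.0567% of all 14109 genes tested. At an unadjusted p under 0.05 there was 1 (Ndufa12), against 11.6% of all genes. DESeq2's Wald test called 0 of 45 and 2.08% of all genes to which it gave an adjusted p, and limma-voom called 0 of 45 and 0.0354%. At an unadjusted p under 0.05 DESeq2 had 2 (Ndufa12 and Ndufs4), against 9.84% of all genes with a p, and limma-voom 1 (Ndufa12), against 11.3%. Limma on log2 of FPKM plus 1 had 4 (Ndufa2, Ndufaf3, Ndufb4 and Ndufs5), against 13.4%.

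The fold changes were small in both directions. Over the 45 genes, 23 log2 fold changes were above 0 and 22 below, and their median was 0.0037, where all genes tested had 49.3% positive and a median of -0.0037. The members ran from -0.28 (Ndufs5) to 0.21 (Ndufa12), inside the 5th to 95th percentiles of all genes tested (-0.46 to 0.63). The median was 0.0080 over the 36 subunits (19 positive, 17 negative) and 0.042 over the 7 assembly factors (4 positive, 3 negative). With limma on log2 of FPKM plus 1, 11 of 45 were positive, where the median over all genes tested was -0.047. Unit, scaling and tool changed together there, and the cause was not tested.

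The intervals bound the difference for each gene singly, not for all genes jointly. They do not cover the uncertainty from reads shared with other loci. The 95% interval of the difference lay within 1.5-fold either way for 44 of 45 genes and within 1.25-fold for 30. Ndufs5 was the gene outside 1.5-fold, with an interval reaching -0.65, a level 1.57-fold lower in knockouts. The highest upper bound was that of Ndufs1, 0.53. The pooled SD of log2 CPM within groups had a median of 0.0957 over the members, against 0.178 over all genes tested and 0.115 over the 2698 genes averaging at least 50 CPM.

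**Figure D3:**
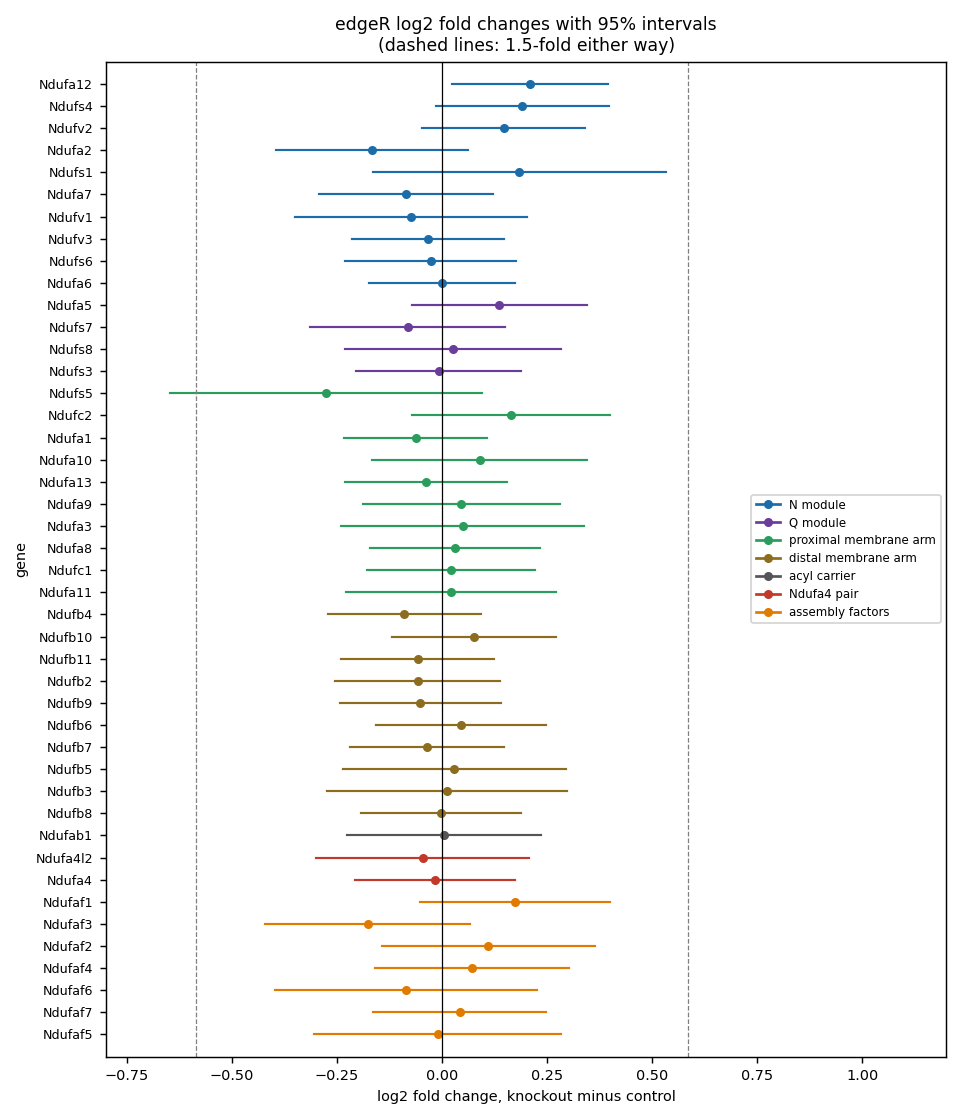
edgeR log2 fold changes (knockout minus control; points) with 95% intervals (lines) of the 44 genes, coloured by place in the complex; dashed lines mark 1.5-fold either way. All points lie between -0.28 and 0.21, and the interval of Ndufs5 alone crosses a dashed line.

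In the N module 4 of 10 subunits had a positive log2 fold change (median -0.014). Ndufa12 (Entrez 66414; chromosome 10, 94199035 to 94221440), a late-added accessory subunit of this module, stood at 203, 203 and 217 CPM in controls 1 to 3 and 239, 228 and 253 CPM in knockouts 1 to 3. Every knockout was above every control. The log2 fold change was 0.21 (SE 0.0794, 95% interval 0.024 to 0.39), and the edgeR adjusted p was 0.390 (0.227 to 0.785 over the alternatives). With 3 against 3 libraries such separation always gives an exact two-sided permutation p of 0.1, the smallest possible. The pseudogene match of Ndufa12 given above covers 71.0% of its matched transcript, and how far reads were shared was not tested.

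Ndufs4 (chromosome 13, 114287795 to 114388094), an accessory subunit whose loss causes Leigh-like disease, stood at 152, 142 and 129 CPM in controls 1 to 3 and 167, 155 and 160.1 CPM in knockouts 1 to 3. Its groups did not overlap either, with a log2 fold change of 0.19 (SE 0.0882; adjusted p in edgeR = 0.457); without control 3 it was 0.13. Ndufv2, which carries an iron-sulfur cluster, had a control mean of 339 ± 22.6 CPM and a knockout mean of 375 ± 11.2 CPM (SD, n = 3 each; log2 fold change 0.15) and Ndufa2 a control mean of 119 ± 13.5 CPM and a knockout mean of 106 ± 0.880 CPM (log2 fold change -0.17), with overlapping groups in both. The log2 fold changes of the other 4 accessory subunits ran from -0.085 to -0.00052, also with overlap. Ndufa2 was chosen after its values were seen.

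The subunit that binds the flavin and NADH, Ndufv1, had a control mean of 356 ± 47.0 CPM and a knockout mean of 338 ± 27.0 CPM (SD, n = 3 each), a log2 fold change of -0.074 (SE 0.119; adjusted p in edgeR = 0.849) that was 0.0047 without control 1 and -0.18 without control 3. Ndufs1, which carries most of this module's iron-sulfur clusters, stood at 460.1, 448 and 327 CPM in controls 1 to 3 and 481, 414 and 508 CPM in knockouts 1 to 3. Control 3 was the low library, and the groups overlapped, with a log2 fold change of 0.18 (SE 0.149; adjusted p in edgeR = 0.672). Without control 3 it was 0.042.

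In the Q module 3 of 5 were positive (median 0.026). The log2 fold change of Ndufa5 was 0.14, that of Ndufs7, which holds the last cluster before ubiquinone, -0.082 and that of Ndufs8 0.026. Without control 3 Ndufa5 was at 0.068, and without control 1 Ndufs7 was at 0.00056. Groups overlapped in all 5 subunits.

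In the proximal membrane arm 7 of 10 were positive (median 0.026). Beside Ndufs5, Ndufc2 had a control mean of 93.9 ± 8.87 CPM and a knockout mean of 105 ± 8.21 CPM (SD, n = 3 each), a log2 fold change of 0.16 (SE 0.101; adjusted p in edgeR = 0.579) that was 0.094 without control 3. The X-linked Ndufa1 had a control mean of 70.5 ± 3.40 CPM and a knockout mean of 67.5 ± 0.933 CPM (log2 fold change -0.063), and Ndufa3 had a log2 fold change of 0.049. The other 6 ran from -0.039 to 0.089, and the groups overlapped in all 10.

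In the distal membrane arm 4 of 10 were positive (median -0.019), and the log2 fold changes spanned -0.089 to 0.077. These ends were Ndufb4 (a control mean of 143 ± 7.09 CPM and a knockout mean of 135 ± 5.09 CPM; SD, n = 3 each) and Ndufb10 (a control mean of 217 ± 11.3 CPM and a knockout mean of 228 ± 12.9 CPM). Ndufb9 stood at 414, 401 and 368 CPM in controls 1 to 3 and 380.3, 368 and 393 CPM in knockouts 1 to 3, a log2 fold change of -0.052. The X-linked Ndufb11 was at -0.058 and Ndufb3 at 0.012, and the groups overlapped in all 10 genes of this arm. Log2 fold changes were 0.0037 for Ndufab1, which is shared with fatty acid synthesis, and, for the pair kept apart, Ndufa4 at -0.017 (95% interval -0.21 to 0.17) and Ndufa4l2 at -0.046 (-0.30 to 0.21).

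Among assembly factors, Ndufaf1 (chromosome 2, 119655446 to 119662839), part of the complex that assembles the membrane arm, stood at 40.5, 39.9 and 33.0 CPM in controls 1 to 3 and 43.7, 40.7 and 43.5 CPM in knockouts 1 to 3. All knockouts were above all controls, although knockout 2 lay close to control 1, for a log2 fold change of 0.17 (SE 0.0969; adjusted p in edgeR = 0.541) that was 0.085 without control 3. Ndufaf2, a relative of Ndufa12 that acts late in assembly, stood at 6.88, 6.16 and 6.85 CPM in controls 1 to 3 and 6.92, 7.41 and 7.14 CPM in knockouts 1 to 3. Its groups also did not overlap, with a log2 fold change of 0.11 (SE 0.109; adjusted p in edgeR = 0.731) that was 0.050 without control 2. Ndufaf3, which acts early with the Q module, stood at 12.3, 12.9 and 14.6 CPM in controls 1 to 3 and 12.6, 11.1 and 11.5 CPM in knockouts 1 to 3 and was at -0.18 (SE 0.105; adjusted p in edgeR = 0.563), with overlap. Control 3 was its highest library, and without it the log2 fold change was -0.10. The other 4 assembly factors ran from -0.085 (Ndufaf6) to 0.071 (Ndufaf4).

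Ndufa12, Ndufs4, Ndufaf1 and Ndufaf2 were thus the 4 of 45 without overlap of log2 CPM between groups, each higher in knockouts. Over all genes tested the share was 17.3% in both directions together and 8.38% with knockouts higher.

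Summed over the 36 subunits, the level was 7562, 7026 and 6685 CPM in controls 1 to 3 and 7402, 6912 and 7462 CPM in knockouts 1 to 3. Control 1 was highest and control 3 lowest, so both extremes were controls; the control mean was 7091 ± 442 CPM and the knockout mean 7259 ± 301 CPM (SD, n = 3 each). The assembly factors summed to a control mean of 168 ± 5.18 CPM and a knockout mean of 173 ± 7.04 CPM.

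Control 3 held the lowest of the 6 values for 17 of 45 genes and the highest for 8, so it was not low throughout. Its log2 CPM was furthest below the mean of 6 libraries for Ndufs1 (-0.41), Ndufaf1 (-0.28) and Ndufa10 (-0.26), and furthest above it for Ndufaf5 (0.24), Ndufaf3 (0.23) and Ndufa2 (0.21); Ndufa10 and Ndufaf5 fall outside the naming rule and were picked with their values known. By median deviation, control 3 was the lowest library in the Q module (-0.15), the proximal membrane arm (-0.058) and complexes II to V (-0.12). It was not the lowest in the N module (-0.0068), the distal membrane arm (-0.027) or the assembly factors (0.043). The median deviation of the 10 slow fibre markers in control 3 was -2.36, with Myh7 at 6.63 CPM against 179.6 to 416 CPM elsewhere. Myh2, of fast oxidative fibres, was at 1193 CPM there against 2182 to 4711 CPM. The part of fibre type in the complex I values was not tested. Without control 3, 17 of 45 log2 fold changes were positive, against 23 with it, and the log2 fold change of Ndufa12 was 0.24. Without control 1, 30 were positive. Leaving out some single library moved the log2 fold change by over 1.5 times for 42 of 45 genes and changed its sign for 25. The exceptions to the first were Ndufa12, Ndufs4 and Ndufv2. For values near 0, such as that of Ndufa6 (-0.00052), a small shift is enough for this. The largest shift of any of the 45 genes was 0.14 (without control 3), beside SEs of 0.0731 to 0.159.

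**Figure D4:**
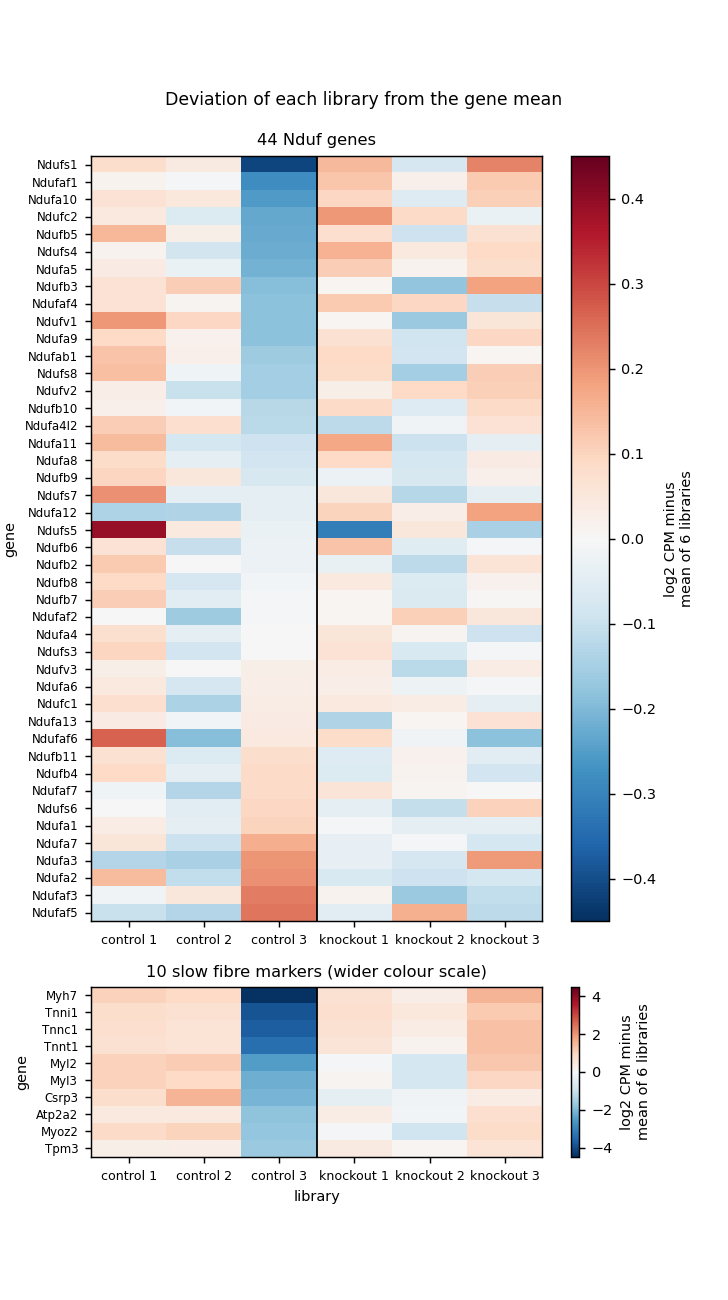
Colour shows log2 CPM minus the gene's mean of 6 libraries, for the 44 genes (top) and 10 slow fibre markers (bottom, on a wider colour scale), by library and sorted by control 3. Control 3 ranges from -0.41 to 0.24 over the Nduf genes, while all slow fibre markers are low there.

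Of 11 measured complex I assembly genes without an Nduf symbol, edgeR, DESeq2 and limma-voom each called 0. The shares of all genes were 0.0567%, 2.08% and 0.0354%. Each tool had 1 at an unadjusted p under 0.05, against 11.6%, 9.84% and 11.3% of all genes. Of the 11, 5 were positive (median -0.010). The gene with the smallest p was 1810043H04Rik (Entrez 208501), which RefSeq names Ndufaf8, a partner of Ndufaf5 in assembly. It stood at 12.4, 11.6 and 14.7 CPM in controls 1 to 3 and 9.71, 10.8 and 9.09 CPM in knockouts 1 to 3. Every knockout was below every control, with a log2 fold change of -0.39 (SE 0.124, adjusted p in edgeR = 0.363). Groups did not overlap for 17.3% of all genes tested, both directions together. Tmem186, a membrane arm assembly factor, had a log2 fold change of 0.18.

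Of 39 nuclear subunits of complexes II to V, edgeR, DESeq2 and limma-voom each called 0, against 0.0567%, 2.08% and 0.0354% of all genes. Each tool had 1 at an unadjusted p under 0.05, against 11.6%, 9.84% and 11.3% of all genes. Of the 39, 25 were positive (49.3% of all genes tested were) and the median was 0.043, beside 0.0080 for complex I subunits. The smallest p values were those of Uqcrb of complex III (log2 fold change 0.18) and Atp5e of the ATP synthase (-0.23). Of 6 other enzymes that feed NADH or quinone pools, 0 were called in edgeR, DESeq2 or limma-voom. At an unadjusted p under 0.05 there were 0 in each, beside the same shares of all genes. Etfdh, which passes electrons from fatty acid oxidation to ubiquinone, had a log2 fold change of 0.18 and Dhodh, of pyrimidine synthesis, one of -0.12.

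Of 11 regulators of respiratory chain genes, edgeR called 0, against 0.0567% of all genes, and limma-voom 0, against 0.0354%. At an unadjusted p under 0.05 each had 2, against 11.6% of all genes in edgeR and 11.3% in limma-voom. DESeq2 called 1, Ppargc1a (adjusted p = 0.0134), against 2.08% of all genes to which it gave an adjusted p. Ppargc1a, the coactivator known to raise complex I genes, stood at 56.7, 57.1 and 34.0 CPM in controls 1 to 3 and 422, 293 and 87.7 CPM in knockouts 1 to 3. All knockouts were above all controls but were uneven, and the edgeR adjusted p was 0.241 for a log2 fold change of 2.44 (SE 0.525). Groups did not overlap for 17.3% of all genes tested in both directions together, and for 8.38% with knockouts higher. Nrf1 stood at 14.5, 14.6 and 15.2 CPM in controls 1 to 3 and 12.1, 11.4 and 12.6 CPM in knockouts 1 to 3, each knockout below each control, a log2 fold change of -0.30 (SE 0.0864; adjusted p in edgeR = 0.340). Esrra, which encodes estrogen-related receptor alpha, had a control mean of 102 ± 10.52 CPM and a knockout mean of 99.9 ± 8.49 CPM (SD, n = 3 each; log2 fold change -0.032).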

How the data were processed

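Poly(A)-selected RNA of 6 gastrocnemius samples was sequenced with a strand-preserving kit, per the labels' protocols. The authors' table holds whole-number read counts per gene, deposited unnormalized per the file headers, beside the authors' FPKM and TPM values; TPM was not used. StringTie 1.3.4d, Bowtie2 2.3.4.1, FastQC 0.11.7, bcl2fastq 2.20.0 and the mm10 build come from the submitters' processing notes, which give them no roles. Which program counted reads, and whether by strand, is not given in the sources used here.

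The deposited counts were tested with edgeR 4.0.16 (R 4.3.3): filterByExpr with a minimum count of 10, TMM, quasi-likelihood F test, Benjamini-Hochberg adjustment over 14109 genes (10423 not tested), threshold 0.05. Intervals are 95% and come from the F statistic. CPM used TMM-scaled library sizes, and log2 CPM a prior count of 2. The test was also run on counts simulated from the levels and spread fitted to these data, with 200 genes changed. Its recovery of those genes is not reported here. Alternatives were other scalings and filters, DESeq2 1.42.0, limma 3.58.1 on voom values or log2 FPKM, a replicate term and leaving out each library. The values of 1 gene of the set are not reported here or drawn; counts and medians include it. DESeq2 gave 4657 genes no adjusted p. Coordinates are RefSeq's for GRCm38.p6, the assembly mm10 names; copies were sought with blastn in GENCODE M21 transcripts. The summed Ndufs5 pair was added after seeing the data. The genes, lists, motifs and rules were chosen with earlier results of these data known. Named are, in each part of the complex, the 3 genes with the smallest p and the highest and lowest FPKM, a few set subunits and, of other lists, the 2 smallest p, Ppargc1a and Esrra; Ndufa2, Ndufaf4, Ndufaf6 and some genes holding a motif fall outside this rule, as do Ndufa10 and Ndufaf5.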

Additional observations from a re-analysis of the deposited data

How the results depend on the processing

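In each of 15 alternatives 0 of 45 Nduf genes were called, with the smallest adjusted p 0.227 (Ndufa12 in DESeq2). The summed Ndufs5 pair, added after seeing the data, gave -0.056 in place of -0.28 for Ndufs5. The number of all genes called was 8 in edgeR with TMM and the same count with DESeq2's size factors, upper-quartile scaling, no filter or a filter of 1 CPM. It was 268 with DESeq2's Wald test, 5 with limma-voom, 1 with limma on log2 of FPKM plus 1 and likewise plus 0.1, and 1 to 141 with 1 library left out: 2, 2 and 1 without controls 1, 2 and 3, and 3, 1 and 141 without knockouts 1, 2 and 3. With the replicate number as a block, 0 genes of all and 0 Nduf genes were called. Same-numbered samples did not deviate together (correlations -0.0082, -0.19 and -0.098), so the numbers were not taken as pairs.

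The subunits' median log2 fold change (0.0080) was -0.062 and -0.062 with FPKM plus 1 and plus 0.1, where the median of all genes was -0.047 and -0.070; the cause was not tested. Without single libraries it ran from -0.034 to 0.041, and that of the assembly factors (0.042) from -0.021 to 0.085. The sign of a log2 fold change differed from that reported for up to 12 of 45 genes in an alternative. At this depth Ndufaf2 and Ndufs5, among the lowest in CPM, still had at least 342 counts in every library.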

Other observations

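The gene length implied by counts and FPKM was within 0.9 to 1.1 times that of the matched GENCODE transcript for 26 of 45 genes. It was longer for 5 and shorter for 14. Where several transcripts matched a gene the longest was taken, which tilts this tally towards shorter. The largest ratios were those of Ndufa11 (2699 against 545 bases) and Ndufaf5 (2772 against 1166). The smallest were those of Ndufab1 (811 against 3479) and Ndufb8 (658 against 2142). FPKM, but not the fold changes between groups, depends on this length.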
